A study of Mus musculus with 9 samples.

Results

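Splicing regulators were followed through messenger RNA libraries of the mouse testis on postnatal day 7. The members were every protein-coding gene of the count table with an Srsf-number symbol or a symbol starting with Hnrnp, together with Tra2a, Tra2b, Clk1, Clk2, Clk3, Clk4, Srpk1 and Srpk2. This gave 39 of 56691 listed genes: 11 Srsf genes, 20 hnRNP genes, the pair Tra2a and Tra2b, and 6 kinase genes. All 39 had enough counts to be tested. The samples were whole testes of wild-type mice (WT), of mice labelled Gm1142-/- (Gm1142KO) and of mice labelled Gm1142-/- Gm4779-/- (DKO), with 3 libraries in each group. The labels give no strain, allele design, litter or pooling, and no treatment. The comparisons ask how the transcriptome of the testis at this age differs when, by label, Gm1142 is targeted alone and when Gm4779 is targeted with it.

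Splicing regulators are RNA-binding proteins that decide which splice sites the spliceosome uses. SR proteins carry RNA recognition motifs and a domain of alternating arginine and serine, and in general favour the inclusion of an exon when bound within it. Heterogeneous nuclear ribonucleoproteins (hnRNPs) coat new transcripts and often oppose that inclusion. The CLK and SRPK kinases phosphorylate the arginine-serine domain and so set where SR proteins reside and how active they are. Many genes of both families also limit their own level through exons or introns whose inclusion sends the transcript to nonsense-mediated decay. The testis is among the tissues with the most alternative splicing.

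Total gene counts per library were 4370124 to 8359594. Gm1142, listed as 8030474K03Rik, had 56, 50 and 41 counts in WT, 65, 46 and 50 in Gm1142KO and 0 in all 3 DKO libraries. Gm4779 had 42, 48 and 53 counts in WT, 88, 61 and 59 in Gm1142KO and 0 in all 3 DKO libraries. Reads summed over a gene cannot show a small deletion, so the group called Gm1142KO below is known by its label alone, and its Gm1142 counts do not check that label. Its 3 libraries lay apart from the other 6, with scores of 43.7 to 67.5 on the first principal component against -34.0 to -21.6. Mitochondrially encoded genes took 32.5% to 38.9% of their counts, 29.4% to 32.7% in WT and 27.1% to 32.9% in DKO. The highest share was in Gm1142KO replicate 2 and the lowest in DKO replicate 2, which was also the deepest library. None of the 20 Sertoli-cell and 20 germ-cell markers listed for the tissue was without counts in any group. Nothing in the labels says that replicates came from separate animals, so the p-values reflect only how these libraries vary, which may be technical. In a whole testis, fewer cells of a type and less RNA per cell cannot be told apart.

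The sequence that names the SR family is visible in the coding DNA. The stretches below hold the 30 codons with the most adjacent arginine-serine or serine-arginine pairs in Srsf6, Srsf5 and Tra2a, the RNA-binding members that were lowered most in Gm1142KO, and in Hnrnph3, the hnRNP gene that rose most there. They are read 5′ to 3′ from GENCODE M21 transcripts, and capitals mark codons for serine or arginine.
Srsf6: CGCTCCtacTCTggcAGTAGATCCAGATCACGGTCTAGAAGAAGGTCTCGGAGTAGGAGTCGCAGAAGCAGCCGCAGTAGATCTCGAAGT
Srsf5: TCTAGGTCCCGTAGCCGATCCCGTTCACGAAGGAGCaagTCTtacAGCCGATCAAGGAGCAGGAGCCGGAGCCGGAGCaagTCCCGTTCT
Tra2a: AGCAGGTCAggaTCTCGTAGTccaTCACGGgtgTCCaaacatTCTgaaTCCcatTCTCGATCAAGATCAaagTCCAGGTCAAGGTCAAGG
Hnrnph3: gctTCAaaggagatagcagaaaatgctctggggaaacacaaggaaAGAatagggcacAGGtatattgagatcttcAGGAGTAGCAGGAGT
In Srsf6 the stretch covers residues 189 to 218, and 28 of its 30 codons are for serine or arginine. In Srsf5 it covers residues 197 to 226 with 27 such codons, in Tra2a residues 32 to 61 with 22, and in Hnrnph3 residues 65 to 94 with 8. Over the whole protein, the 11 Srsf genes encode 9 to 106 such pairs, counted with overlap, with a median of 41. The 20 hnRNP genes encode 2 to 13 with a median of 4. Srsf4 has the most, 106, followed by Srsf6 with 74, and Srsf9 has the fewest of its family, 9.

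Levels are given in CPM, the count of a gene per 1000000 counts of the scaled library, and levels of different genes are compared per kilobase of annotated exon. In WT the most abundant SR gene per kilobase was Srsf5, at 597 ± 32.1 CPM per kilobase (SD, n = 3). Srsf6 followed at 217 ± 11.0 and Srsf7 at 161 ± 4.76. Among hnRNP genes Hnrnpa1, which shuttles between nucleus and cytoplasm, was highest at 494 ± 17.2 CPM per kilobase, ahead of Hnrnph1 at 279 ± 15.7 and Hnrnpa2b1 at 215 ± 13.5. Srsf6 and Hnrnpa2b1 overlapped in this order. Of the kinases, Clk4 (77.5 ± 4.94) and Clk1 (75.2 ± 4.51) overlapped as well. At the lower end, Srsf12 had 9 to 28 counts in a library. Hnrnpa1 and several relatives have processed copies elsewhere in the genome, and how multi-mapping reads were counted is not stated in the labels, so their levels are uncertain.

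In Gm1142KO the splicing regulators split: some of the most abundant SR transcripts and one kinase transcript were lower than in WT by more than 2-fold, while several hnRNP transcripts and another kinase transcript were higher. Of the 39 members, 15 passed an adjusted p of 0.05 in the edgeR quasi-likelihood test, 10 higher and 5 lower. The lower ones were Srsf6, Srsf5, Clk4, Tra2a and Hnrnpa2b1. Across all 17251 genes tested, 18.5% were called in this comparison, 10.2% higher and 8.38% lower. Abundant genes were called more often: of 1424 genes with a mean of at least 100 CPM, a limit chosen after the values were seen, 38.5% were called. The members lay mostly in that band, with 13 of 34 called, so their share of calls was near that of equally abundant genes. The median log2 fold change of the members was 0.03 and that of all genes -0.01, and the median size regardless of sign was 0.17 for the members and 0.36 for all genes. These sizes were not matched for abundance, and the value for all genes includes many weakly expressed ones. The largest changes among the members were -1.38 for Srsf6 and 0.81 for Hnrnph3.

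**Figure D1:**
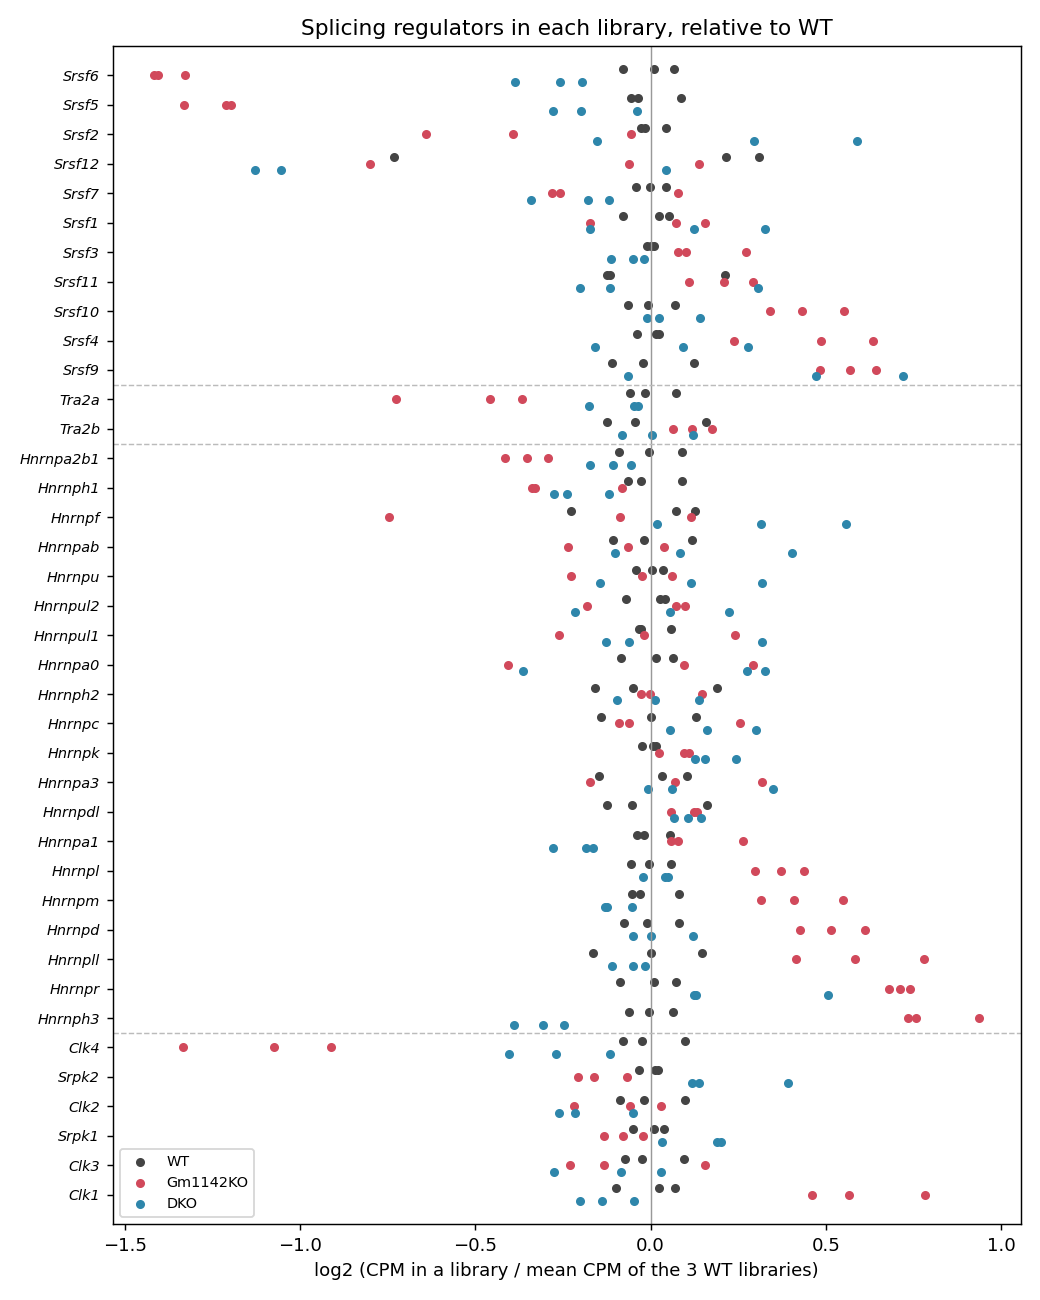
Level of each of the 39 splicing regulators in each library, as log2 of the library's CPM over the mean CPM of the 3 WT libraries, 1 point per library, grouped from top to bottom as SR genes, Tra2 genes, hnRNP genes and kinases. The Gm1142KO points of Srsf6, Srsf5 and Clk4 lie far to the left and those of Hnrnph3, Hnrnpr and Clk1 to the right of both other groups.

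Srsf6 and Srsf5 changed most among SR genes, and both belong to the SR proteins with a pair of RNA recognition motifs. Srsf6 (ENSMUSG00000016921.15, chromosome 2 from 162931528 to 162937121 on the plus strand in the GRCm38 annotation) stood at 1052, 989 and 1094 CPM in the 3 WT libraries, 416, 394 and 391 in Gm1142KO and 873, 799 and 912 in DKO. The 3 groups did not overlap, and the Gm1142KO libraries were by far the lowest. Against WT this was a log2 fold change of -1.38 (SE 0.10, adjusted p = 1.44e-08), or 2.61-fold lower. Srsf5 (ENSMUSG00000021134.18, chromosome 12 from 80945504 to 80950507, plus strand) stood at 2292, 2322 and 2527 CPM in WT, 945, 1038 and 1028 in Gm1142KO and 2073, 1962 and 2318 in DKO. Every Gm1142KO library was below every other library, and DKO overlapped WT. The log2 fold change against WT was -1.25 (SE 0.10, adjusted p = 4.46e-08). The 2 genes kept nearly the same proportion to each other, with 2.28 ± 0.0898 Srsf5 counts per Srsf6 count in WT, 2.51 ± 0.207 in Gm1142KO and 2.46 ± 0.0835 in DKO.

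Smaller rises were found for 3 other SR genes. Srsf10, which can act as a splicing repressor when dephosphorylated, stood at 530, 559 and 509 CPM in WT, 674, 781 and 718 in Gm1142KO and 542, 529 and 587 in DKO. Its Gm1142KO libraries were above all others, with a log2 fold change of 0.44 against WT (SE 0.10, adjusted p = 0.00513). Srsf9 stood at 41.5, 48.9 and 44.1 CPM in WT and 62.7, 66.5 and 70.1 in Gm1142KO, while DKO spanned both at 42.9, 62.2 and 73.8. Its log2 fold change of 0.57 (SE 0.17, adjusted p = 0.024) lost the call without WT replicate 1 (adjusted p = 0.11), WT replicate 3 (0.0778) or Gm1142KO replicate 3 (0.0976). Srsf4, the closest relative of Srsf5 and Srsf6 by domain layout, stood at 46.3, 44.5 and 46.5 CPM in WT, 53.99, 71.1 and 64.1 in Gm1142KO and 48.8, 41.1 and 55.5 in DKO. Its log2 fold change was 0.46 (SE 0.15, adjusted p = 0.0429), a call that was lost in 6 of 9 fits with 1 library left out, where the adjusted p reached 0.158 without Gm1142KO replicate 2. The call was also lost with limma-voom (0.0583), without a filter on low counts (0.0741) with the replicate number as a block (0.0612) and with the second Gm1142KO and second DKO libraries removed (0.0964).

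The other 6 SR genes were not called against WT. Srsf3, a short and abundant SR protein, had 860.7 ± 64.3 CPM in Gm1142KO and 774.3 ± 5.33 in WT (log2 fold change 0.15, SE 0.10). Srsf1, the founding member of the family, had 209 ± 23.9 and 206 ± 9.70 CPM, and Srsf7 had 518 ± 74.7 and 572 ± 16.9 CPM. Srsf11 had a log2 fold change of 0.20 (SE 0.14) and Srsf12 of -0.17 (SE 0.47), the least precise of all members. Srsf2 varied within the group, at 68.4, 45.5 and 54.1 CPM in Gm1142KO against 69.7, 73.1 and 70.2 in WT (log2 fold change -0.34, SE 0.18, adjusted p = 0.2). Its lowest value was in Gm1142KO replicate 2, the library with the highest mitochondrial share, and its highest, 107 CPM, was in DKO replicate 2, with the lowest share. Called members were also ordered by this share. Clk1 and Srsf10 rose with it from library to library within Gm1142KO and within DKO, and Hnrnpll and Hnrnpl did so within Gm1142KO. The part of the mitochondrial share in the values of Srsf2 or any other member was not tested.

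Tra2a and Tra2b are paralogues that bind GAA-rich exon enhancers, with an arginine-serine domain at each end. Tra2a stood at 359, 370 and 393 CPM in WT, 226, 290 and 272 in Gm1142KO and 365, 331 and 362 in DKO. All 3 Gm1142KO libraries were below the other 6, and the log2 fold change against WT was -0.51 (SE 0.12, adjusted p = 0.00382). Tra2b was at 231.6 ± 23.8 CPM in WT, 251.7 ± 9.77 in Gm1142KO and 234.3 ± 16.7 in DKO, with overlapping groups and no call (log2 fold change 0.12, SE 0.12).

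Among the 20 hnRNP genes, 6 rose and Hnrnpa2b1 fell. Hnrnph3, a small relative of the G-tract-binding hnRNP H proteins, stood at 158, 152 and 166 CPM in WT, 265, 305 and 269 in Gm1142KO and 129, 134 and 121 in DKO. The 3 groups did not overlap, with Gm1142KO highest and DKO lowest. The log2 fold change against WT was 0.81 (SE 0.11, adjusted p = 4.89e-05). Hnrnpr, which binds RNA in nucleus and cytoplasm, stood at 110, 123 and 117 CPM in WT, 191, 195 and 187 in Gm1142KO and 127, 166 and 128 in DKO. Its groups did not overlap either, and the log2 fold change was 0.71 (SE 0.13, adjusted p = 5.26e-04).

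The other 4 that rose did so by smaller amounts and lay within or near the range of WT in DKO. Hnrnpll, known as a regulator of alternative exons in lymphocytes, stood at 173, 194 and 214 CPM in WT, 259, 333 and 290 in Gm1142KO and 179, 191 and 187 in DKO (log2 fold change 0.60, SE 0.12). Hnrnpd, also called AUF1, binds AU-rich elements that govern mRNA decay, and stood at 149, 133 and 140 CPM in WT, 189, 215 and 201 in Gm1142KO and 136, 153 and 141 in DKO (0.52, SE 0.12). In both genes each Gm1142KO library exceeded each WT library. Hnrnpm stood at 309, 314 and 339 CPM in WT, 426, 468 and 399 in Gm1142KO and 309, 294 and 293 in DKO (0.43, SE 0.11, adjusted p = 0.00826), a call lost without WT replicate 1 (0.0531). Hnrnpl, a binder of CA repeats, stood at 401, 384 and 370 CPM in WT, 473, 521 and 498 in Gm1142KO and 396, 379 and 398 in DKO. Its log2 fold change of 0.37 (SE 0.10, adjusted p = 0.0157) lost the call without WT replicate 2 (0.0628), WT replicate 3 (0.0759) or Gm1142KO replicate 3 (0.0648).

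Hnrnpa2b1, a reader of purine-rich RNA and a partner of Hnrnpa1, stood at 1411, 1327 and 1504 CPM in WT, 1059, 1154 and 1107 in Gm1142KO and 1255, 1360 and 1314 in DKO. The Gm1142KO libraries were the 3 lowest, with a log2 fold change of -0.35 (SE 0.10, adjusted p = 0.015). That call was lost without WT replicate 1 (0.0523) or WT replicate 3 (0.0789). The remaining 13 hnRNP genes were not called. Those nearest were Hnrnph1, at 1377 ± 144 CPM in Gm1142KO and 1631 ± 91.5 in WT (-0.24, SE 0.10, adjusted p = 0.109), and Hnrnpa1 (0.14, SE 0.10). Hnrnpk, Hnrnpc, Hnrnpu, Hnrnpul1 and Hnrnpul2 had log2 fold changes of 0.08, 0.04, -0.06, 0.00 and 0.00.

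Of the 6 kinase genes, Clk4 fell, Clk1 rose and the others were not called. Clk4 (ENSMUSG00000020385.17, chromosome 11 from 51261730 to 51281766, plus strand) stood at 425, 442 and 481 CPM in WT, 178, 213 and 239 in Gm1142KO and 373, 339 and 414 in DKO. No groups overlapped, and the log2 fold change of Gm1142KO against WT was -1.10 (SE 0.12, adjusted p = 4.45e-06). Clk1 stood at 570, 621 and 642 CPM in WT, 840, 1052 and 906 in Gm1142KO and 555, 531 and 592 in DKO. All Gm1142KO libraries were above the rest (0.61, SE 0.11, adjusted p = 5.49e-04). Clk2 (-0.08, SE 0.12) and Clk3 (-0.06, SE 0.13) overlapped WT, as did Srpk1 (-0.08, SE 0.11). Srpk2 was at 106.4 ± 5.38 CPM in Gm1142KO and 117.6 ± 2.27 in WT (-0.14, SE 0.12), without a call.

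**Figure D2:**
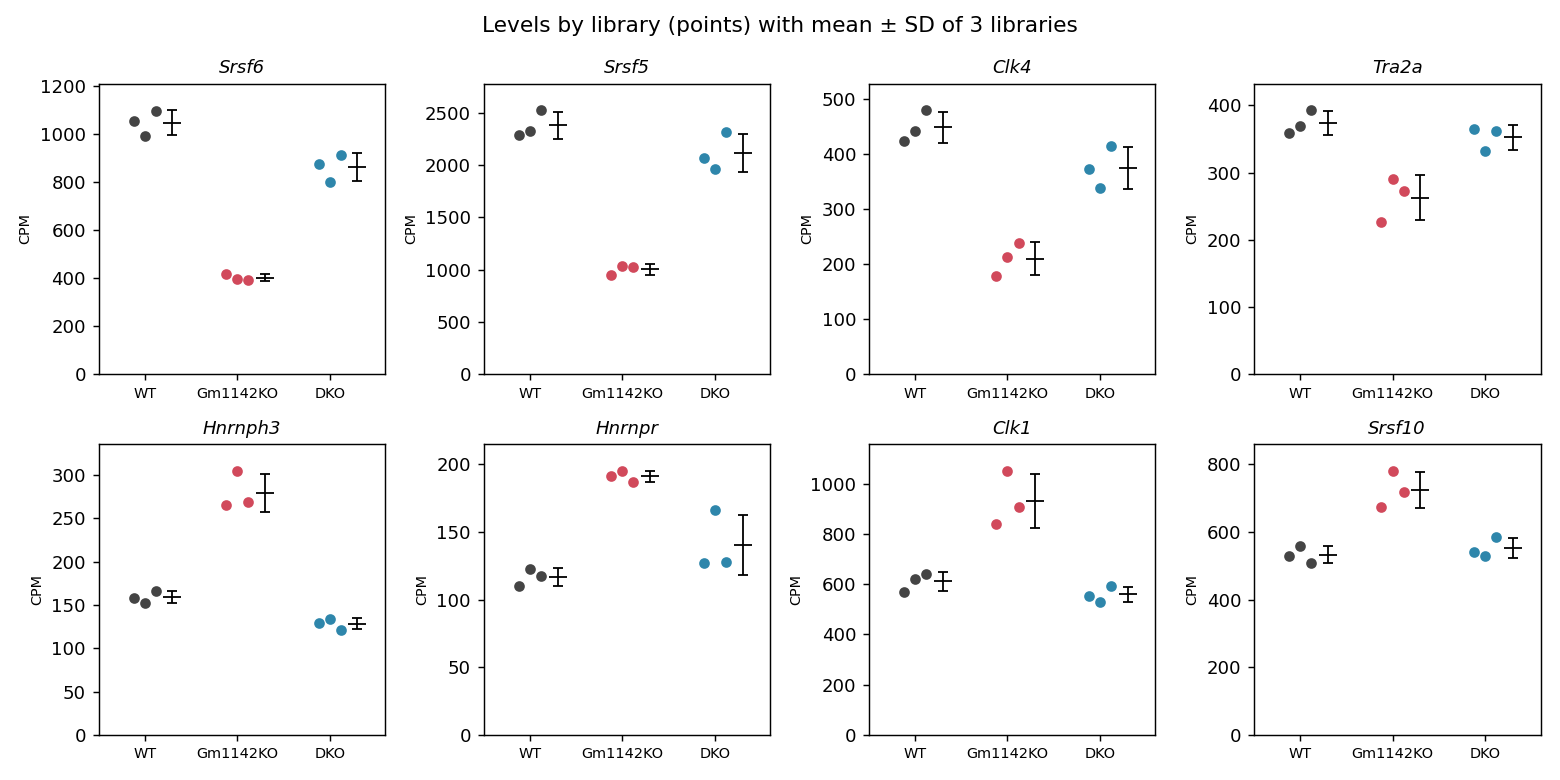
Level in CPM of 8 members in each library (points), with the mean and SD of the 3 libraries beside them, for WT, Gm1142KO and DKO; every axis starts at 0. Srsf6 averages 1045 CPM in WT and 400.6 in Gm1142KO, Clk4 449 and 210.0, and Hnrnph3 159 and 279.5.

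Ratios of related members within a library do not depend on how libraries are scaled. The pairs were chosen after the values were seen, so the ratios are a description without a test. There were 0.735 ± 0.0208 Clk4 counts per Clk1 count in WT, 0.226 ± 0.0327 in Gm1142KO and 0.670 ± 0.0307 in DKO. Srsf6 over Srsf4 was 22.8 ± 0.665, 6.45 ± 1.12 and 17.9 ± 1.51, and Hnrnph1 over Hnrnph3 was 10.3 ± 0.356, 4.92 ± 0.135 and 11.1 ± 1.19. Tra2a over Tra2b was 1.62 ± 0.170, 1.04 ± 0.126 and 1.51 ± 0.176. Hnrnpa2b1 over Hnrnpa1 was 0.908 ± 0.0279, 0.648 ± 0.0283 and 0.973 ± 0.0754. In each of these 5 pairs every Gm1142KO library lay below every library of the other groups.

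**Figure D3:**
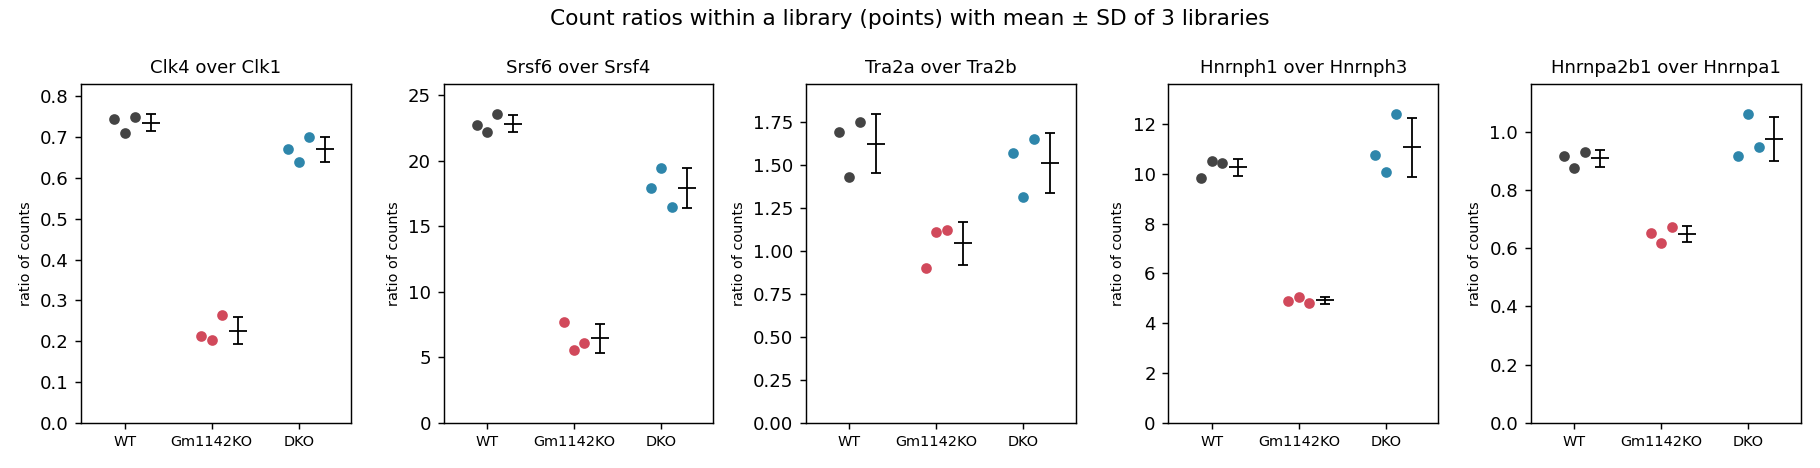
Ratio of the counts of related members within each library (points), with the mean and SD of 3 libraries, for 5 pairs; every axis starts at 0. The Gm1142KO libraries are lowest in each panel, at 0.203 to 0.263 for Clk4 over Clk1 against 0.639 to 0.749 elsewhere.

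Summed over the family, the 11 SR genes held 5715 to 5964 CPM in WT, 3894 to 4264 in Gm1142KO and 5114 to 5601 in DKO. Srsf5 and Srsf6 together made up 3425 ± 170 CPM of this in WT and 1404 ± 37.8 in Gm1142KO. The other 9 SR genes summed to 2375 ± 30.5 CPM in WT, 2645 ± 163 in Gm1142KO and 2334 ± 49.3 in DKO. The sum of these 9 was above WT in 3 of 3 Gm1142KO libraries. The 20 hnRNP genes summed to 8463 ± 218 CPM in WT, 8671 ± 285 in Gm1142KO and 8148 ± 219 in DKO, with WT overlapping both. The 6 kinase genes summed to 1749 ± 80.8, 1793 ± 161 and 1626 ± 90.7 CPM, and these ranges overlapped although Clk4 and Clk1 had moved apart.

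**Figure D4:**
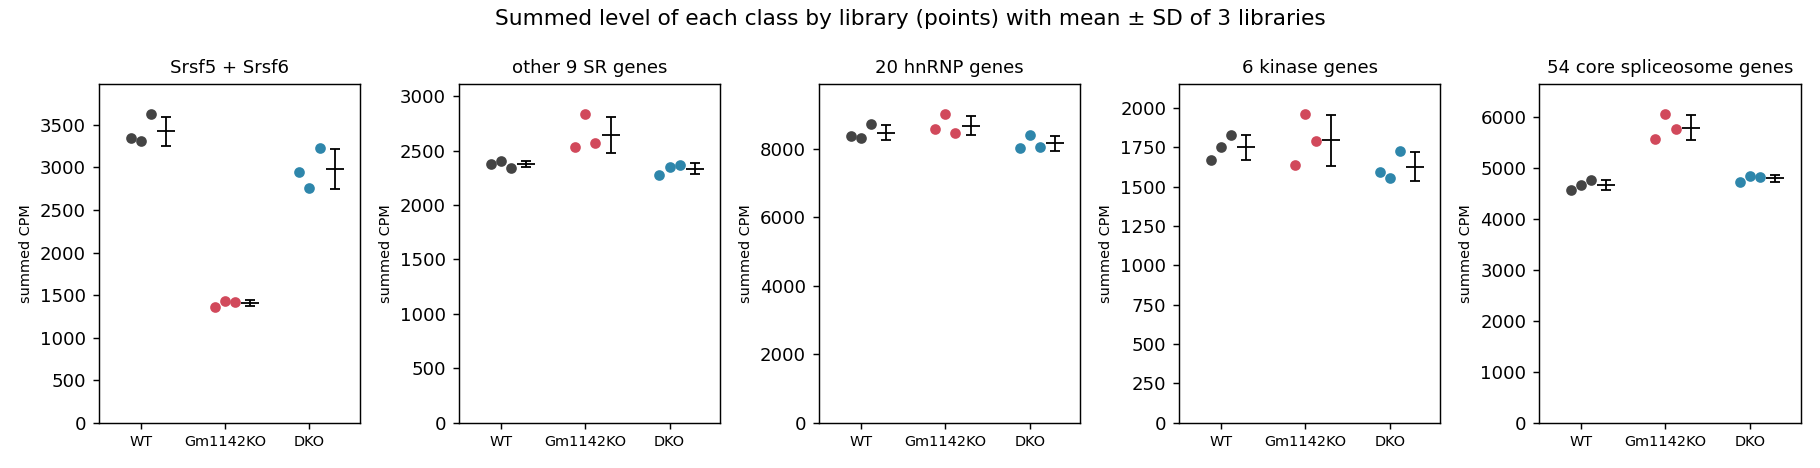
Summed CPM by library (points), with the mean and SD of 3 libraries, for Srsf5 with Srsf6, the other 9 SR genes, the hnRNP genes, the kinase genes and a list of 54 core spliceosome genes; every axis starts at 0. Gm1142KO is lowest for Srsf5 with Srsf6 (1361 to 1433 CPM) and highest for the core spliceosome (5563 to 6049 CPM).

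In DKO against WT none of the 39 members was called by edgeR, DESeq2 or limma-voom. Across all genes 0.0927% were called by edgeR, 0.0464% higher and 0.0464% lower. At an unadjusted p under 0.05 edgeR had 8.95% of all genes and 6 of the 39 members (15.4%): Srsf6 (-0.28, SE 0.10), Hnrnph3 (-0.31, SE 0.12), Hnrnpa1 (-0.21, SE 0.10), Clk4 (-0.26, SE 0.12), Srsf9 (0.41, SE 0.17) and Hnrnpr (0.27, SE 0.13). The smallest adjusted p was 0.431, for Srsf6. Of the 6 named members, the DKO libraries of Srsf6, Hnrnph3, Hnrnpa1 and Clk4 were all below those of WT, and those of Hnrnpr were all above. Outside the 6, the DKO libraries of Hnrnph1, Srsf3 and Srsf7 were also all below WT, and those of Hnrnpk and Srpk2 all above. The share of all genes separated in this way was not counted. Leaving out Srsf12, the unadjusted 95% intervals of the log2 fold change of the other 38 members lay between -0.55 and 0.76. For Srsf5 the interval ran from -0.38 to 0.04 and for Clk1 from -0.36 to 0.10. Both comparisons against WT share the WT libraries, so their values are given side by side and not set against each other.

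**Figure D5:**
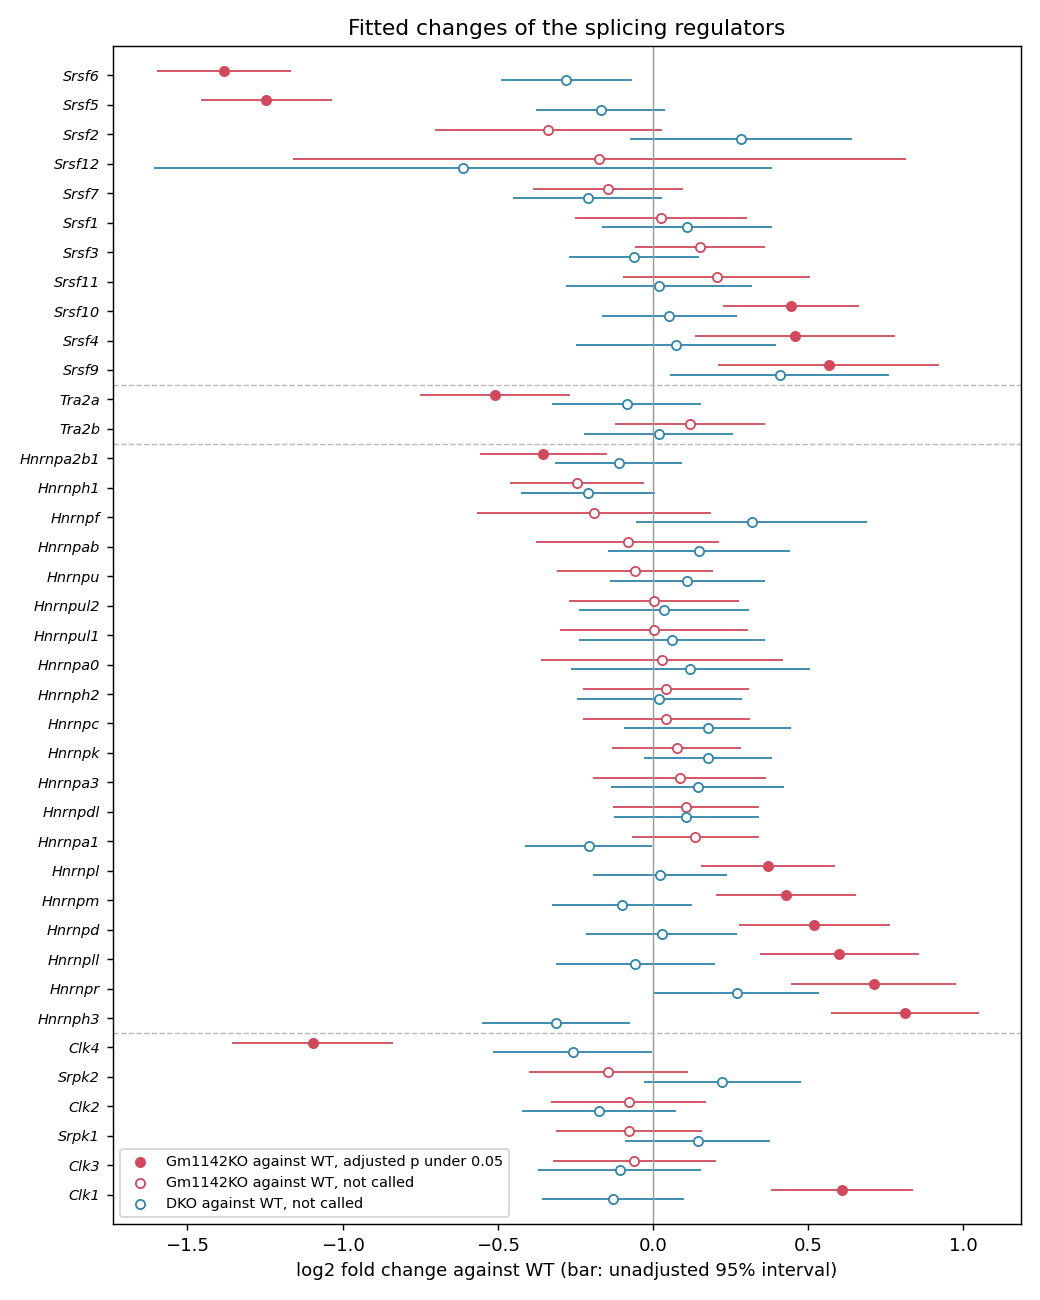
Fitted log2 fold change against WT (points) of the 39 splicing regulators in Gm1142KO and in DKO, with bars for the unadjusted 95% interval; filled points passed an adjusted p of 0.05. Filled points are found for Gm1142KO alone, 5 at the left and 10 at the right, and no DKO point is filled.

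The 2 knockout groups were compared directly, which tests where they differ. They also differ in Gm1142 itself, with 65, 46 and 50 counts in Gm1142KO and 0 in every DKO library. The comparison therefore does not isolate the targeting of Gm4779. In DKO against Gm1142KO, 15 of the 39 members were called, 6 higher and 9 lower in DKO. The background was 19.1% of all genes, 9.07% higher and 10.1% lower. In the band of at least 100 CPM it was 40.0%, with 14 of 34 members called. Srsf6 was higher in DKO by a log2 fold change of 1.10 (SE 0.10, adjusted p = 3.94e-07), Srsf5 by 1.08 (SE 0.10) and Clk4 by 0.84 (SE 0.12, adjusted p = 9.51e-05). Hnrnph3 was lower (-1.12, SE 0.12, adjusted p = 1.26e-06), and Clk1 had -0.74 (SE 0.11), Hnrnpll -0.66 (SE 0.12), Hnrnpm -0.53 (SE 0.11) and Hnrnpd -0.49 (SE 0.12). These 8 calls were kept whichever library was left out and with each other model, scaling and filter tried. A minimum absolute log2 fold change of 0.5 would leave out Hnrnpd. Srsf10 (-0.39, SE 0.10) lost its call when the second library of both knockout groups was removed (adjusted p = 0.0514).

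The other 6 calls each depended on single libraries. Tra2a (0.42, SE 0.12) was not called without Gm1142KO replicate 1 (adjusted p = 0.0582) or DKO replicate 1 (0.0535). Hnrnpr (-0.44, SE 0.13) was not called without DKO replicate 1 (0.0701) or DKO replicate 3 (0.0549), and Hnrnpl (-0.35, SE 0.10) without Gm1142KO replicate 3 (0.0702) or DKO replicate 2 (0.0694). The Hnrnpl call was also lost with the compared groups alone (0.0619) and without the second library of both groups (0.0699). Hnrnpa1, the most abundant hnRNP transcript per kilobase, stood at 1538, 1515 and 1618 CPM in WT, 1622, 1868 and 1644 in Gm1142KO and 1371, 1285 and 1389 in DKO. Its value of -0.34 (SE 0.10, adjusted p = 0.0175) lost the call without DKO replicate 2 (0.0533), with the compared groups alone (0.0636) and without the second library of both groups (0.0692). Srsf2 stood at 87.1, 107 and 63.9 CPM in DKO, which overlapped Gm1142KO (0.62, SE 0.17, adjusted p = 0.0158). It was not called without Gm1142KO replicate 2 (0.0704), Gm1142KO replicate 3 (0.0623) or DKO replicate 2 (0.119), and without the second library of both groups (0.264). Srpk2 stood at 118.5, 119 and 115 CPM in WT, 105, 102 and 112 in Gm1142KO and 129, 154 and 128 in DKO (0.37, SE 0.12, adjusted p = 0.0402). That call was lost in 8 of 9 fits with 1 library left out, with an adjusted p up to 0.157 without DKO replicate 2. It was also lost without a filter (0.0646), with the compared groups alone (0.0778), with the replicate number as a block (0.0658) and without the second library of both groups (0.244).

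Other genes of the splicing machinery were read from lists chosen with earlier results of these data known. Of 54 core spliceosome genes, which encode proteins of the small nuclear ribonucleoproteins and their helicases, 13 rose and 1 fell in Gm1142KO against WT, with a median log2 fold change of 0.17. The share called was 25.9%, against 18.5% of all genes tested. The list summed to 4665 ± 99.0 CPM in WT, 5790 ± 244 in Gm1142KO and 4800 ± 66.3 in DKO. Snrpd3, an Sm ring protein, rose from 41.6 ± 1.91 to 114.0 ± 13.8 CPM (1.45, SE 0.17), the helicase gene Dhx15 from 412.1 ± 9.24 to 788 ± 108 (0.93, SE 0.11) and the U2 particle gene Snrpb2 from 44.2 ± 4.29 to 94.5 ± 11.4 (1.09, SE 0.15). The member that fell was U2af2 (-0.47), which recognises the polypyrimidine tract before an exon. Against Gm1142KO, DKO had 11 of these genes lower and 2 higher (24.1% called, 19.1% of all genes), and against WT none was called (0.0927% of all genes).

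Of 62 further splicing regulators 15 rose and 11 fell in Gm1142KO against WT (41.9% called, 18.5% of all genes), with a median of 0.07. Rbmx, an X-linked relative of the hnRNPs also called hnRNP G, stood at 94.0, 93.8 and 99.3 CPM in WT, 40.8, 38.6 and 39.2 in Gm1142KO and 96.1, 96.3 and 94.2 in DKO (-1.27, SE 0.13). Scaf11 rose from 102.4 ± 14.1 to 251.0 ± 32.6 CPM (1.29, SE 0.14). In DKO against Gm1142KO 11 of this list were higher and 15 lower (41.9% called, 19.1% of all genes), among them Rbmx (1.27) and Luc7l3 (-1.04). None was called in DKO against WT. Of 17 genes of nonsense-mediated decay and the exon junction complex, 3 rose and 1, Upf3b (-0.42), fell in Gm1142KO (23.5% called, 18.5% of all genes). Those that rose were Magohb, from 10.4 ± 1.90 to 34.2 ± 9.39 CPM (1.71, SE 0.25), Smg9 (0.64, SE 0.20) and Smg5 (0.45, SE 0.14). In DKO against Gm1142KO 1 was higher and 2 were lower (17.6% called, 19.1% of all genes).

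The annotation marks many members as producing non-coding isoforms. In GENCODE M21, 27 of the 39 members have a transcript annotated for nonsense-mediated decay, or 69.2%, against 28.2% of 13758 protein-coding genes tested, and 30 members (76.9%) have a retained-intron transcript, against 58.2%. All 5 members lower in Gm1142KO have both kinds, and of the 10 higher ones 8 have the first and 8 the second. Of the 24 members that were not called, 14 have the first and 17 the second. Counts per gene add such isoforms to the coding ones, so a change of a gene's count cannot be assigned to its coding mRNA. Exons of 17 members overlap another annotated gene, 13 of them on the opposite strand, among them Hnrnph3, Hnrnpr, Hnrnpd, Hnrnpl, Srsf4, Srsf2 and Srpk2. Whether counting used strand is not stated in the labels, so for these genes reads of the overlapping gene cannot be told apart. Among called members, Clk4 overlaps Gm25082 and Hnrnpm overlaps March2 on the same strand, where strand would not separate the reads.

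The upstream stretches of the 4 members with the smallest adjusted p among those that fell are shown because these transcripts were lowered together. Each is the 250 bases before the RefSeq start site on the gene's own strand in GRCm38.p6, with capitals for matches to 6 motifs on either strand. The Clk4 stretch lies inside that gene as annotated in GENCODE M21, which starts at 51261730, so it precedes a start site within the gene. The CCAAT box was searched by those letters. The GC box was searched as GGGCGG. The cAMP response element was searched as TGACGTCA. The core bound by ETS factors was searched as CCGGAAG. The longer CGCG element and NRF1 motif were searched as well.
Srsf6, chr2:162931258-162931507, plus strand: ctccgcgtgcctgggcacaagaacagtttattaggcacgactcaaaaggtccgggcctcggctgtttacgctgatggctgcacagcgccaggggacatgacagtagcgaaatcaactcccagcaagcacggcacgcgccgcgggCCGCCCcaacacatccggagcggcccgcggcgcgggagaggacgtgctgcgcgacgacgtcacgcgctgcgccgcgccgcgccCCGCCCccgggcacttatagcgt
Srsf5, chr12:80945249-80945498, plus strand: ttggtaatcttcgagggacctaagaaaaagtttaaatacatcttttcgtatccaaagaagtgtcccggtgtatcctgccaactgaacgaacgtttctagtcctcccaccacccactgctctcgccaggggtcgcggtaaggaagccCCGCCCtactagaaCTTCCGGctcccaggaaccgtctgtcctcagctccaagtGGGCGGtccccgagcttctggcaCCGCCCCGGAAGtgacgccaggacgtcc
Clk4, chr11:51262864-51263113, plus strand: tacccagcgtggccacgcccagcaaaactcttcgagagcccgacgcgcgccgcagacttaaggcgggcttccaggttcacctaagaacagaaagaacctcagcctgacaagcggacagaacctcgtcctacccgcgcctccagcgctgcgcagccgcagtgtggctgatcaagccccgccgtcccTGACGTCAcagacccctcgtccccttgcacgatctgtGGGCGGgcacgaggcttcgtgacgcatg
Tra2a, chr6:49264053-49264302, minus strand: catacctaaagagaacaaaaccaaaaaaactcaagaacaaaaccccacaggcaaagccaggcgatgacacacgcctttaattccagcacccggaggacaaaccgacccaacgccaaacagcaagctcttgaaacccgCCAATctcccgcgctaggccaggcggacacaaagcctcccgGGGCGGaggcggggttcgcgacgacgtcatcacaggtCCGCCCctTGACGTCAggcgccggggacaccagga
All 4 hold a GC box, but Hnrnpa2b1, the other member that fell, does not. Among the members that rose, Srsf4, Srsf9, Srsf10, Hnrnph3, Hnrnpr, Hnrnpd and Hnrnpl hold it and Hnrnpm does not. A gene can have several start sites, so shares were also counted per gene, with a gene counted when any of its entries held the motif. The 36 members with an entry have 50 entries, and the 10798 tested protein-coding genes with an entry have 13804. Counted in this way, 31 members (86.1%) and 63.2% of the tested genes hold a GC box, and 19 members (52.8%) and 40.6% hold a CCAAT box. Of single promoter entries, 32.7% of 32851 hold the GC box and 33.8% the CCAAT box. Clk4 and Tra2a are the members with a full cAMP response element, found in 2.94% of tested genes and 1.55% of entries. In Srsf5 an ETS core overlaps a GC box next to the start, and 7 of 36 members (19.4%) hold that core, against 14.9% of tested genes and 6.91% of entries. Srsf11 is the member with the NRF1 motif (1.83% of tested genes, 0.782% of entries), and no member holds the CGCG element (0.972% and 0.390%). Clk1, Hnrnpll and Hnrnpul2 had no entry. These matches describe letters in a window and not bound sites.

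Markers of some testis cell types also differed between groups. Over all genes tested, 18.5% were called in Gm1142KO against WT, 0.0927% in DKO against WT and 19.1% in DKO against Gm1142KO. The shares called in Gm1142KO against WT were 31.6% of Sertoli-cell, 37.5% of Leydig-cell and 20% of germ-cell markers, the last near that of all genes. In DKO against Gm1142KO they were 47.4%, 37.5% and 45%. In Gm1142KO against WT, 5 of 19 tested Sertoli-cell markers were lower and 1 higher, led by Sox9 (-1.47), and the list summed to 2251 to 2457 CPM in WT, 2035 to 2235 in Gm1142KO and 2107 to 2648 in DKO. Of 8 tested Leydig-cell markers 3 were lower, with sums of 633 to 896 CPM in WT, 384 to 482 in Gm1142KO and 572 to 778 in DKO. Hsd3b6 of that list had no counts in WT or DKO. Of 20 germ-cell markers 3 were higher and 1 lower in Gm1142KO, with sums of 645 to 743 CPM in WT, 610 to 747 in Gm1142KO and 997 to 1194 in DKO. In DKO against WT 4 of them were higher, Sycp1, Uchl1, Fkbp6 and Dazl. In DKO against Gm1142KO 8 Sertoli-cell, 9 germ-cell and 3 Leydig-cell markers were higher and 1 Sertoli-cell marker was lower. In Gm1142KO against WT no endothelial or macrophage marker was called by edgeR (0 and 2 at an unadjusted p under 0.05), and 1 of 10 myoid and stromal markers was lower. In DKO against Gm1142KO 1 of 8 endothelial markers was higher and 2 were lower, 1 of 10 macrophage markers was higher, and no myoid or stromal marker was called (1 at an unadjusted p under 0.05). The red-cell list summed to 68.7 to 82.9 CPM in WT, 95.2 to 137 in Gm1142KO and 62.4 to 82.7 in DKO, with 1 of 5 tested genes higher in Gm1142KO against WT. Of these 5 genes, 2 were lower in DKO against Gm1142KO (40% called, 19.1% of all genes). The part of these cell types in the levels of the splicing regulators was not tested. Without mitochondrially encoded genes in the fit, the same 15 members were called in Gm1142KO against WT. That fit removes the counts of those genes alone, so it does not test the part of the mitochondrial share in the levels of the members.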

How the data were processed

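The authors deposited raw read counts per gene for 9 libraries of oligo(dT)-enriched RNA. Per the submitters' processing notes, cutadapt, Bowtie2, STAR, featureCounts and mm39 were used. Their versions, the strand setting and the annotation release are not given in the sources used here. Identifiers were matched without version to GENCODE M21 (GRCm38), and 52073 of 56691 had a symbol. Genes without one held 0.411% to 0.510% of counts.

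Counts were fitted with edgeR 4.0.16 in R 4.3.3: filterByExpr over the groups with count limits of 10 per library and 15 in total (17251 genes left), TMM factors of 0.856 to 1.07, 1 term per group over 9 libraries (6 residual degrees of freedom), quasi-likelihood F-test and Benjamini-Hochberg adjustment over all genes. The standard error is the log2 fold change divided by the square root of F. Intervals are 95% and unadjusted.

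Alternatives were DESeq2 1.42.0, its size factors in the edgeR fit, limma-voom (limma 3.58.1), no filter, a stricter filter (1 CPM in 3 libraries, 100 counts), a replicate block, fits on only the pair of groups compared, removal of mitochondrially encoded genes, leaving out each library, leaving out the second library of both knockout groups, and a minimum absolute log2 fold change of 0.5. On simulated counts of 17251 genes for Gm1142KO against WT, the test recovered 20% of genes changed 1.5-fold and 62% of those changed 2-fold. Of the tested genes 1424 had a mean of at least 100 CPM, as did 34 of the 39 members. The rates therefore cover mostly weaker genes and are not rates for the members. Within each group, pairs of libraries differed beyond sampling noise (chi-square per degree of freedom 3.82 to 11.0). The members and lists, and the limit of 100 CPM, were chosen with earlier results of these data known. Members called in any comparison are given with every library's value, and up to 3 called genes of each further list by smallest adjusted p, of which 1 is not reported here; U2af2 and the printed ratios were chosen after their values were seen. Protein sequences were not used here, and coding DNA is shown instead.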

Additional observations from a re-analysis of the deposited data

How the results depend on the processing

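The count of called members kept within 1.5 times of 15 under all but one alternative. With a minimum absolute log2 fold change of 0.5, 8 members were called in place of 15 in DKO against Gm1142KO, and 10 in place of 15 in Gm1142KO against WT. Leaving out 1 library gave 11 to 16 members in Gm1142KO against WT, 11 to 16 in DKO against Gm1142KO and 0 in DKO against WT. Of the 15 calls, 10 were kept whichever library was left out in Gm1142KO against WT and 9 in DKO against Gm1142KO, and no called difference of a member changed sign under the alternatives tried. Differences near 0 that were not called changed sign in 6 cases, those of Hnrnpd, Hnrnpl, Hnrnpll, Srsf4 and Srsf10 in DKO against WT and of Srsf9 in DKO against Gm1142KO (from -0.16 to 0.02 without DKO replicate 1). Over all genes, 2037 were called in Gm1142KO against WT without WT replicate 1 in place of 3196. In DKO against Gm1142KO, 3301 calls became 2004 without the second library of both groups and 2128 without DKO replicate 2. DKO against WT had 16 calls over all genes, 110 without a filter, 63 with DESeq2, 28 with the compared groups alone, 45 without Gm1142KO replicate 2 and 9 without WT replicate 1, with no member among them. Replicate numbers are shared between groups, but libraries of the same number did not deviate together (r from -0.45 to 0.18 over 10611 genes), so the numbers do not pair them. Some libraries of different number did, Gm1142KO replicate 2 with DKO replicate 3 (r = 0.42) and Gm1142KO replicate 1 with DKO replicate 2 (0.34). Gm1142KO replicate 1 and DKO replicate 3 deviated in opposite directions (-0.40). What these libraries share was not tested. With the replicate block, 14 members were called in Gm1142KO against WT, 0 in DKO against WT and 14 in DKO against Gm1142KO, and the calls lost were Srsf4 (adjusted p = 0.0612) and Srpk2 (0.0658). With 3 libraries a group, changes under 2-fold in weakly expressed members such as Srsf12 are poorly resolved.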
